A study of Mus musculus with 12 samples.

Results

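Antiviral interferon-stimulated genes were followed in bone marrow-derived macrophages (BMDMs) with and without selenoproteins. The set lists 37 genes by name, chosen as classical antiviral members of the interferon response. No value on these arrays entered the rule, but earlier results of these data were known when it was made. Each gene was read from the single probe set that carries its symbol alone and has the highest mean signal, which gave a value for 33 of the 37 members among 18193 genes tested. Isg15 and Trex1 share their probe sets with another symbol and are given no value, and Oas1g and Ifi44 were not analysed here.

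The study deleted Trsp, the gene of the selenocysteine tRNA on which all selenoprotein synthesis depends, in the myeloid lineage. RNA came from 4 groups of 3 biological replicates, each hybridized to its own array. They were ΔTrspM macrophages (Trspfl/fl-LysM-Cre+/-) treated with lipopolysaccharide (LPS) for 4 h, control macrophages (Trspfl/fl-LysM-Cre-/-) treated with LPS for 4 h, unstimulated ΔTrspM macrophages and unstimulated control macrophages. All donors were female c57bl6 mice that carried the floxed Trsp alleles, and all bone marrow cells were differentiated in M-CSF for 7 days. The age of the mice and the dose of LPS used for the arrays are not given in the sources used here. Cre was driven by the lysozyme M promoter, which is active in macrophages and other myeloid cells, and the control mice carried no Cre. Loss of Trsp and the presence of Cre therefore cannot be told apart in any comparison of the genotypes. No value of Trsp enters the report, and the genotype labels were therefore not checked against the deleted gene.

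LPS is sensed by TLR4, which signals through the adaptor TRIF to the kinases TBK1 and IKKε and the transcription factor IRF3, and macrophages then transcribe interferon-β. Secreted interferon acts on the receptor pair IFNAR1 and IFNAR2 of the same and of neighbouring cells, and the signal is carried to the nucleus, where target genes are switched on through the interferon-stimulated response element (ISRE) of their promoters. Their products detect viral RNA, cut it, block its translation, trap virions or regulate interferon signalling itself.

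Promoters of 7 members are shown first, because they place the response element next to genes whose changes with LPS differ widely. A RefSeq window of 300 bases around the gene start (build GRCm38.p6) was available for 28 of the 37 members, in 36 windows. The ISRE core GAAANNGAAA, searched on both strands, was present in 10 of these 36 windows (27.8%), against 3.44% of all 32851 windows. The members with a match were Bst2, Ddx58, Eif2ak2, Ifih1, Ifit1, Ifit3, Isg15, Oas1g, Oas3 and Rsad2. The interferon-γ activated site core TTCNNNGAA was present in 5 of the 36 windows (13.9%), against 8.3% of all windows. One of its matches, in Bst2, shares bases with the ISRE match beside it. A match describes letters in a window and was not tested as a binding site. Only bases before the gene start are printed, 5′ to 3′ along the gene's strand, with ISRE matches of either strand in capitals.
Ifit1, chr19:34640765-34640833 (+): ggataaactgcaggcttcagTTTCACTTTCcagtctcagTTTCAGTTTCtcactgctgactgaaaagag
Ifit3, chr19:34583353-34583436 (+): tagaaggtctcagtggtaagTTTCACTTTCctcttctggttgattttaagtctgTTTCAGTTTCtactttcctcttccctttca
Rsad2, chr12:26456543-26456592 (-): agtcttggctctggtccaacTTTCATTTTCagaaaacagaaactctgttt
Oas3, chr5:120777705-120777754 (-): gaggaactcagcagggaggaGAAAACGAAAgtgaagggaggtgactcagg
Bst2, chr8:71537567-71537622 (-): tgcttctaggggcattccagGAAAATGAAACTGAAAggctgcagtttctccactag
Cmpk2, chr12:26469065-26469164 (+): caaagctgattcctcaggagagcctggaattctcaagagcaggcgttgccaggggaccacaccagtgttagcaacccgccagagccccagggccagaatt
Oas1f, chr5:120847217-120847316 (+): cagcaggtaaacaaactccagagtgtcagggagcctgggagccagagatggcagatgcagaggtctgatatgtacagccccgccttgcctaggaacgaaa

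Values below are log2 signals: the deposited linear intensities were quantile-normalized across arrays, 16 was added and log2 was taken, so that changes of dim genes are understated. Levels were not compared between genes, because each probe set binds its target with its own efficiency. Of 9 measured macrophage markers, Csf1r, Adgre1, Cd68, Lyz2, Cd14 and Mpeg1 were bright on every array. The others were lower or more variable: Fcgr1 ran from 10.88 to 12.33, Itgam from 9.69 to 12.26 and Mertk from 8.89 to 10.28. The lists of other cells were mixed: Cd3e of T cells stayed between 4.82 and 5.86 and Siglech of plasmacytoid dendritic cells between 4.34 and 6.17, but Tcf4 of the plasmacytoid list reached 11.46, S100a8 of neutrophils 12.83, Col1a2 of stromal cells 11.86 and Ighm of B cells 9.19. Their part in the results was not tested. The ΔTrspM LPS replicate 2 array was dim before scaling, with 47.7% of its probe sets under a signal of 16, against 16.1% to 28.8% on the other 11 arrays.

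One library stood apart from its group. On the array labelled unstimulated control replicate 2, all 33 members had their highest value among the 3 unstimulated control arrays, whereas 31.5% of all genes did. So did all 9 GTPases of the GBP and IRG families, all 10 inflammatory NF-κB targets and 62% of 1012 other genes that rose at least 2-fold with LPS in ΔTrspM macrophages. Averaged over the 33 members, the log2 signal was 8.39, 8.72 and 8.11 on unstimulated ΔTrspM replicates 1 to 3, and 8.49, 11.31 and 8.49 on unstimulated control replicates 1 to 3. After LPS it was 12.28, 12.37 and 12.34 in ΔTrspM macrophages and 12.52, 12.56 and 12.51 in control macrophages. Whether its label is right, or whether that culture had been stimulated, was not tested, and every unstimulated control value rests on it in part. The counts and medians of the members are given below with and without that array. It was told apart by the values of these same members, so the direction in which they move without it was fixed in advance.

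**Figure D1:**
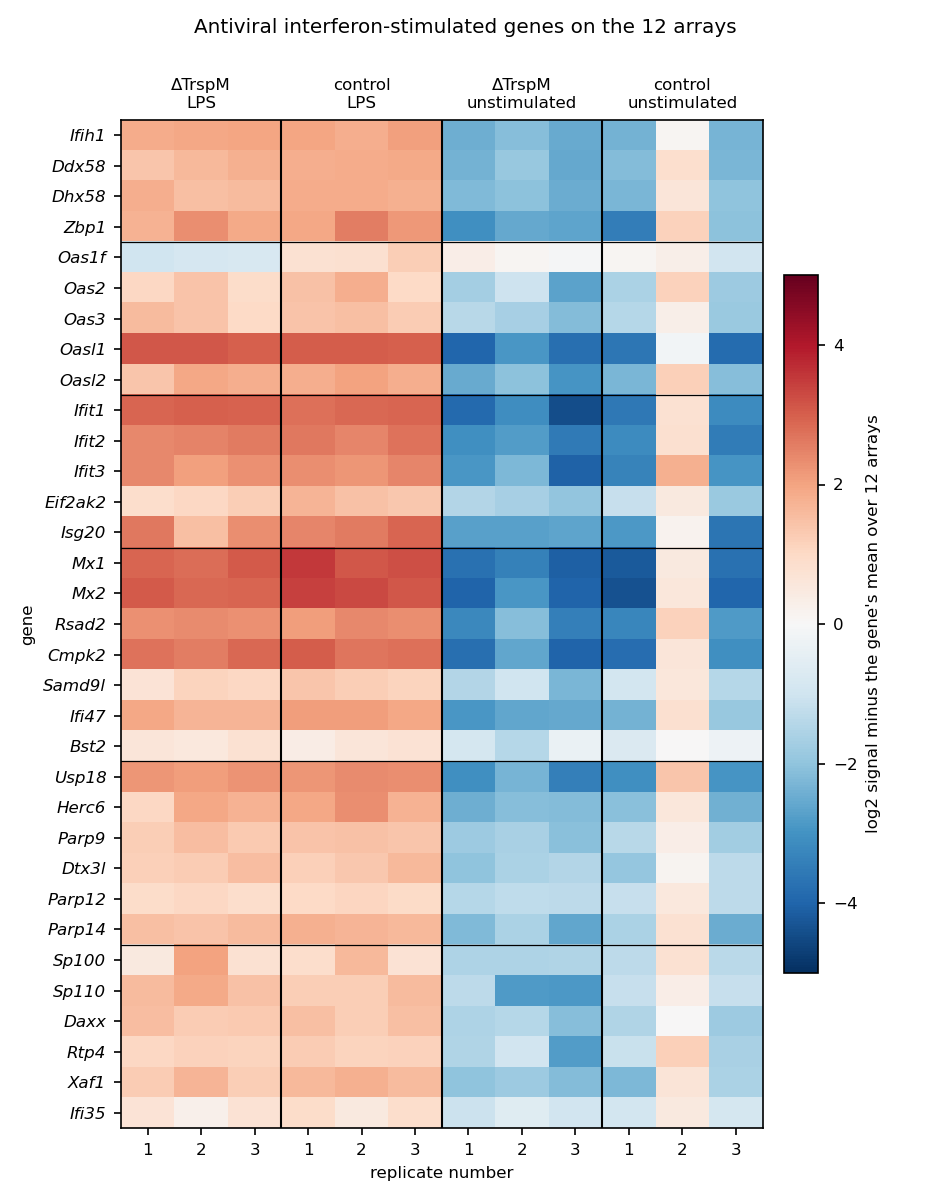
Log2 signal of the 33 measured antiviral genes (rows, ordered by role) on the 12 arrays (columns, by group and replicate number), each as the difference from the gene's mean over the arrays. Unstimulated control replicate 2 is raised across the rows, and Oas1f is the row that is low on the LPS-treated ΔTrspM arrays.

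LPS raised nearly the whole antiviral set in ΔTrspM macrophages. Of the 33 measured members, 32 rose and 1, Oas1f, fell (limma across all genes, Benjamini-Hochberg adjusted p under 0.05), while 7.29% of all genes rose and 8.51% fell. The median change was 3.87 on the log2 scale, or 14.6-fold, against -0.03 over all genes. In control macrophages 29 members rose and 0 fell, against 7.09% and 8.54% of all genes, with a median change of 2.94 (7.67-fold). Without unstimulated control replicate 2, all 33 measured members rose in control macrophages with a median of 3.97 (15.7-fold), against 6.62% of all genes that rose and 7.33% that fell. Without unstimulated control replicate 3, 19 members and 5.29% of all genes rose. With the 6 control arrays fitted alone, 18 members and 5.47% of all genes rose. The methods' t-test at p under 0.01 called 0 members and 5.01% of all genes higher. The paper's methods give that threshold for comparing the genotypes. Here it was also applied to LPS against unstimulated, on the log2 signals described above. These are RNA pools of whole cultures, in which a change in the number of responding cells and a change in RNA per cell cannot be told apart.

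The IFIT genes, whose products bind viral RNA or translation factors and block viral translation, were among those raised most. Ifit1 had 13.62, 13.67 and 13.64 on the LPS-treated ΔTrspM arrays, against 6.80, 7.60 and 6.27 on the unstimulated ΔTrspM arrays. In control macrophages it had 13.46, 13.56 and 13.61 after LPS, against 7.12, 11.46 and 7.57 unstimulated. The LPS and unstimulated arrays did not overlap in either genotype, and the change was 6.75 ± 0.87 (SE) in ΔTrspM macrophages (108-fold, adjusted p = 0.000503) and 4.83 ± 0.87 in control macrophages (28.4-fold, adjusted p = 0.00343). These errors come from a variance pooled over all 4 groups. The SD of Ifit1 was 0.02 and 0.67 in LPS-treated and unstimulated ΔTrspM macrophages, and 0.07 and 2.39 in LPS-treated and unstimulated control macrophages. Ifit2 had 13.53, 13.62 and 13.74 after LPS in ΔTrspM macrophages, against 8.04, 8.33 and 7.60 unstimulated, and 13.75, 13.55 and 13.84 after LPS in control macrophages, against 7.98, 11.93 and 7.64 unstimulated. Ifit3 had 13.63, 13.30 and 13.52 in LPS-treated ΔTrspM macrophages, against 8.32, 9.0 and 7.20 unstimulated, and 13.57, 13.43 and 13.68 in LPS-treated control macrophages, against 7.88, 12.997 and 8.29 unstimulated. On the quantile-normalized scale all 3 IFIT genes thus came to a narrow range after LPS in both genotypes, and their spread lay in the unstimulated groups. Before scaling, Ifit3 ran from 4245.1 on the dim ΔTrspM LPS replicate 2 array to 15865.7 on LPS-treated control replicate 3. How far scaling set the narrow range was not tested.

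In the same functional group, Isg20, a 3′ to 5′ exonuclease of RNA, had 11.63, 10.49 and 11.31 on the LPS-treated ΔTrspM arrays, against 6.25, 6.25 and 6.34 on the unstimulated ones. In control macrophages Isg20 had 11.40, 11.59 and 11.88 after LPS, against 6.10, 9.13 and 5.33 unstimulated. Its changes of 4.86 ± 0.74 in ΔTrspM and 4.77 ± 0.74 in control macrophages (SE) were the closest pair between the genotypes among the 10 most strongly raised members, but the control change was 5.90 without unstimulated control replicate 2. Eif2ak2, which encodes the RNA-activated kinase PKR, rose by 2.76 and 2.34 in ΔTrspM and control macrophages, and by 2.998 in control macrophages without that array.

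Among the dynamin-like GTPases and the viperin locus, Mx1 and Mx2 rose by the largest amounts of the group. Mx1 had 13.21, 13.12 and 13.38 on the LPS-treated ΔTrspM arrays, against 6.61, 6.95 and 6.26 unstimulated. In control macrophages it had 13.84, 13.44 and 13.54 after LPS, against 6.13, 10.82 and 6.58 unstimulated. Mx2 had 11.84, 11.66 and 11.70 after LPS in ΔTrspM macrophages, against 4.80, 5.87 and 4.80 unstimulated, and 12.21, 12.10 and 11.90 after LPS in control macrophages, against 4.42, 9.36 and 4.83 unstimulated. No LPS array overlapped an unstimulated array for either gene, and the changes were 6.63 ± 0.92 for Mx1 and 6.58 ± 0.99 for Mx2 in ΔTrspM macrophages (SE, adjusted p = 0.000788 and 0.00126 by limma). In control macrophages they were 5.76 ± 0.92 and 5.87 ± 0.99 (adjusted p = 0.00165 and 0.00224).

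Rsad2 (viperin), which makes a chain-terminating nucleotide, and its neighbour on chromosome 12, Cmpk2, a nucleotide kinase, rose together. Rsad2 had 13.88, 13.98 and 13.90 after LPS in ΔTrspM macrophages, against 8.39, 9.48 and 8.18 unstimulated, and 13.68, 14.02 and 13.92 after LPS in control macrophages, against 8.34, 12.75 and 8.78 unstimulated. Cmpk2 had 13.74, 13.60 and 13.89 after LPS in ΔTrspM macrophages, against 7.25, 8.42 and 7.00 unstimulated, and 14.06, 13.72 and 13.78 after LPS in control macrophages, against 7.24, 11.65 and 7.96 unstimulated. The changes in ΔTrspM and control macrophages were 5.24 and 3.92 for Rsad2 and 6.18 and 4.90 for Cmpk2. The Cmpk2 window printed above holds no ISRE core, while that of Rsad2 holds 1.

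At the other end of this group stood Bst2 (tetherin), which holds budding virions at the cell surface. It had 12.01, 11.90 and 12.14 on the LPS-treated ΔTrspM arrays, against 10.50, 9.98 and 11.07 unstimulated, and 11.76, 12.02 and 12.10 on the LPS-treated control arrays, against 10.69, 11.40 and 11.15 unstimulated. Bst2 rose by 1.505 ± 0.28 (SE) in ΔTrspM macrophages (adjusted p = 0.00424), and its change of 0.88 ± 0.28 in control macrophages did not pass (adjusted p = 0.0556). Its promoter holds 2 overlapping ISRE cores, so that within the printed windows the number of cores did not follow the size of the change. Samd9l, a restriction factor of poxviruses, and Ifi47, an immunity-related GTPase, rose by 2.52 and 4.46 in ΔTrspM macrophages and by 1.83 and 3.19 in control macrophages (2.42 and 4.17 without unstimulated control replicate 2).

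The oligoadenylate synthetases make the second messenger that switches on RNase L, and the family held both one of the largest increases and the one decrease. Oasl1, a family member without synthetase activity in the mouse, had 13.51, 13.50 and 13.38 after LPS in ΔTrspM macrophages, against 6.45, 7.49 and 6.62 unstimulated. In control macrophages Oasl1 had 13.41, 13.41 and 13.40 after LPS, against 6.79, 10.28 and 6.56 unstimulated. The change was 6.61 ± 0.76 in ΔTrspM and 5.53 ± 0.76 in control macrophages (SE, adjusted p = 0.000242 and 0.000685), and the LPS arrays lay together at the top of the plot of signals by array. Oas3 and Oasl2 also rose in both genotypes, by 3.07 and 4.23 in ΔTrspM macrophages and by 2.39 and 2.94 in control macrophages (3.02 and 4.07 without unstimulated control replicate 2). Oas2 had 11.33, 11.74 and 11.23 on the LPS-treated ΔTrspM arrays, against 8.61, 9.26 and 7.64 unstimulated, and rose by 2.93 (adjusted p = 0.0136). In control macrophages Oas2 had 11.75, 12.11 and 11.28 after LPS, against 8.71, 11.44 and 8.46 unstimulated, which overlapped (2.18, adjusted p = 0.0511).

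Oas1f ran against the rest of the set. It had 4.79, 4.93 and 4.96 on the LPS-treated ΔTrspM arrays, against 6.09, 5.86 and 5.72 on the unstimulated ΔTrspM arrays, and 6.54, 6.58 and 6.98 on the LPS-treated control arrays, against 5.87, 6.07 and 4.81 on the unstimulated control arrays. The arrays of the 2 LPS groups therefore lay on opposite sides of their unstimulated groups without overlap. Oas1f fell 1.99-fold with LPS in ΔTrspM macrophages (-0.996 ± 0.30, SE, adjusted p = 0.0435) and rose 2.16-fold in control macrophages (1.11 ± 0.30, adjusted p = 0.0266). These are dim signals: before scaling they were 8.8, 3.9 and 19.1 in LPS-treated ΔTrspM macrophages and 87.0, 48.5 and 118.4 in LPS-treated control macrophages, against a constant of 16 that was added before the log. The fall in ΔTrspM macrophages rested on a narrow margin: it no longer passed without 9 of the 12 arrays, each left out in turn (every array but unstimulated control replicates 2 and 3 and LPS-treated control replicate 3), where its size stayed between -0.90 and -1.08. It also did not pass with the arrays scaled to a common median (-0.57) or with a constant of 64 (-0.47), where it was smaller, nor with no scaling (-1.28) or with a variance trend in the fit (-0.996), where it was not. The rise in control macrophages did not pass without unstimulated control replicate 3 (0.73) or without LPS-treated control replicates 2 (1.17) or 3 (0.97).

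**Figure D2:**
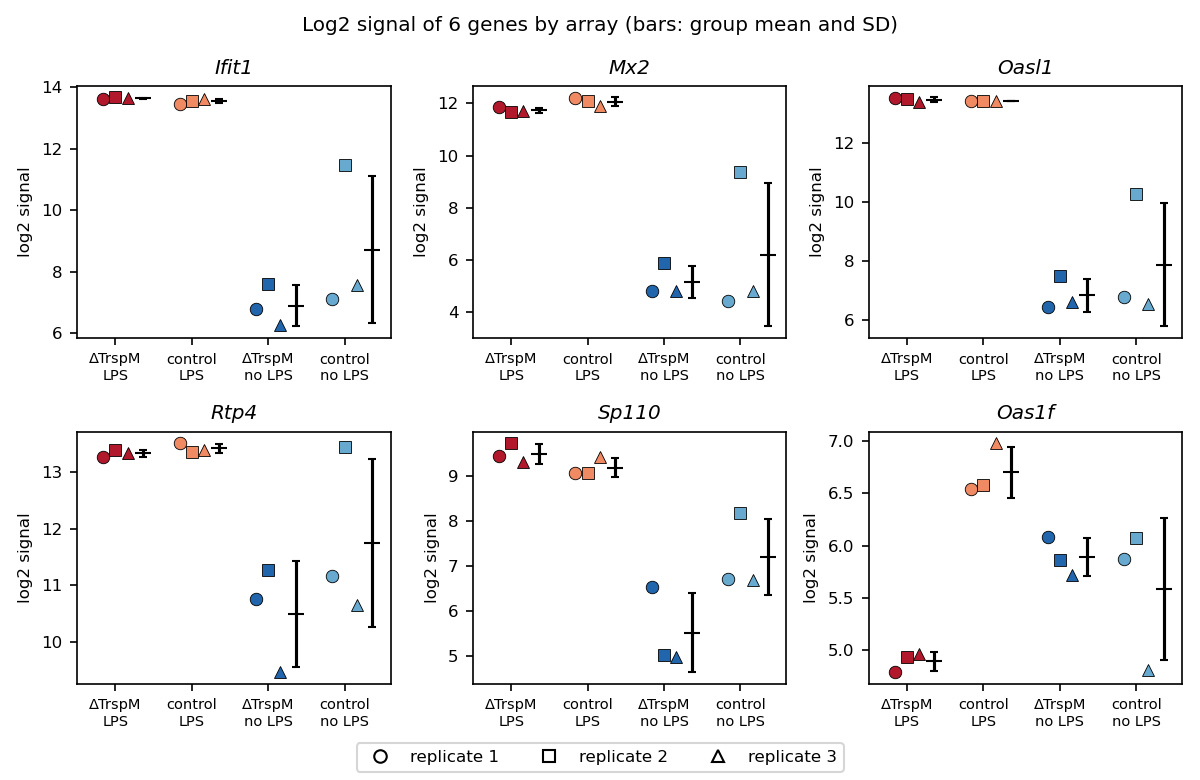
Log2 signal of 6 antiviral genes on each array, by group on the horizontal axis, with symbols for the replicate numbers and bars for the group mean and SD (n = 3). Unstimulated control replicate 2 (square) lies far above its group for Ifit1, Mx2, Oasl1 and Rtp4, and the Oas1f axis spans a range of low signals.

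Members that act through ISG15 and ADP-ribosylation rose in both genotypes, all 6 that were measured. Usp18, the protease that removes ISG15 and dampens interferon receptor signalling, had 13.49, 13.35 and 13.53 after LPS in ΔTrspM macrophages, against 8.23, 8.95 and 7.87 unstimulated. In control macrophages Usp18 had 13.49, 13.63 and 13.60 after LPS, against 8.21, 12.66 and 8.31 unstimulated. The changes were 5.11 ± 0.91 in ΔTrspM and 3.85 ± 0.91 in control macrophages (SE, adjusted p = 0.00342 and 0.0146). Herc6, the ISG15 ligase of the mouse, the ADP-ribosyltransferases Parp9, Parp12 and Parp14 and the ubiquitin ligase Dtx3l, partner of PARP9, changed by 2.28 to 3.82 in ΔTrspM macrophages and 1.66 to 3.30 in control macrophages. With unstimulated control replicate 2 left out, the control range was 2.25 (Parp12) to 4.25 (Herc6).

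The RNA sensors Ifih1 (MDA5), Ddx58 (RIG-I) and Dhx58 (LGP2) and the nucleic acid sensor Zbp1 rose in both genotypes, by 3.87 to 4.73 in ΔTrspM macrophages and by 3.05 to 3.67 in control macrophages. Leaving out unstimulated control replicate 2, the control changes were 4.30 for Ifih1, 4.10 for Ddx58, 3.97 for Dhx58 and 4.97 for Zbp1, beside 4.28, 3.87, 3.88 and 4.73 in ΔTrspM macrophages. Of the nuclear body proteins and other members, all 6 measured rose in ΔTrspM macrophages and 4 in control macrophages. Sp100, a component of nuclear bodies, had 10.25, 11.77 and 10.51 after LPS in ΔTrspM macrophages, against 8.21, 8.20 and 8.23 unstimulated, and 10.63, 11.38 and 10.46 after LPS in control macrophages, against 8.45, 10.49 and 8.38 unstimulated. Rtp4, an inhibitor of flavivirus replication, had 13.28, 13.40 and 13.35 after LPS in ΔTrspM macrophages, against 10.76, 11.28 and 9.46 unstimulated, and 13.52, 13.36 and 13.40 after LPS in control macrophages, against 11.16, 13.45 and 10.65 unstimulated. In the control comparison 1 unstimulated array overlapped the LPS arrays for both genes, and neither passed (adjusted p = 0.0574 for Sp100 and 0.101 for Rtp4). With the replicate number as a block, all 4 members that had not passed in control macrophages did so, Rtp4 at an adjusted p of 0.0493 and Sp100 at 0.0104. Daxx, Xaf1, Sp110 and Ifi35 rose in both genotypes.

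Without unstimulated control replicate 2, the changes of the most strongly raised members in control macrophages were larger and had smaller errors. All 33 members were highest on that array within its group, so leaving it out had to enlarge each of their control changes. The values below describe the dependence on the array and are no separate support for the rise. Mx2 then rose by 7.45 ± 0.32 (SE), Mx1 by 7.25 ± 0.26 and Oasl1 by 6.73 ± 0.29 (6.58, 6.63 and 6.61 in ΔTrspM macrophages), while Ifit1 rose by 6.201 ± 0.335. Cmpk2 (6.25), Ifit2 (5.90), Ifit3 (5.48), Usp18 (5.31) and Rsad2 (5.31) lay close to their changes of 6.18, 5.64, 5.31, 5.11 and 5.24 in ΔTrspM macrophages. The 4 members that had not passed in control macrophages did so without the array, Oas2 by 3.13, Rtp4 by 2.52, Sp100 by 2.41 and Bst2 by 1.04 (adjusted p = 0.0492 for Bst2 by limma).

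**Figure D3:**
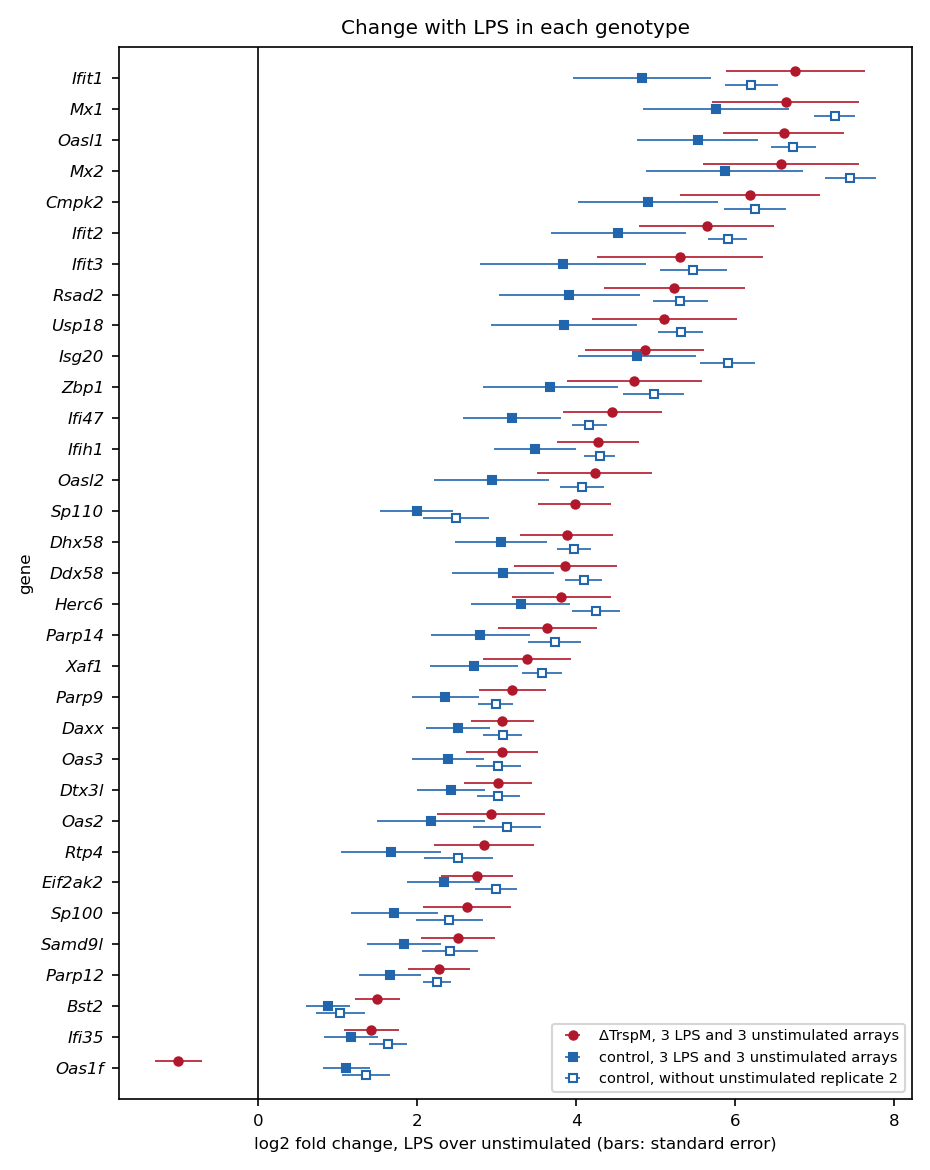
Log2 fold change of LPS over unstimulated for the 33 members (vertical axis, ordered by the change in ΔTrspM macrophages), with standard errors from limma: filled circles for ΔTrspM, filled squares for control, open squares for control without unstimulated replicate 2. Leaving out that array moves the control median to 3.97, beside 3.87 in ΔTrspM macrophages.

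Among the 14 members with several probe sets, every probe set pointed the same way with LPS as the one used, in both genotypes. In the genotype comparisons some did not: a second probe set of Xaf1 and of Sp110 was positive (0.30 and 0.04) for unstimulated ΔTrspM over control, and after LPS other probe sets of Ddx58 (0.15), Rsad2 (-0.13) and Sp110 (-0.31 and -0.16) had the opposite sign to the one used.

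Genes that act upstream of the set were read on the same arrays. Ifnb1, which encodes interferon-β, had 10.38, 9.24 and 10.02 after LPS in ΔTrspM macrophages, against 5.89, 5.75 and 5.88 unstimulated, and 9.75, 8.96 and 10.07 after LPS in control macrophages, against 5.84, 5.66 and 5.22 unstimulated. Its change of 4.04 in ΔTrspM macrophages lay next to 4.02 in control macrophages (16.4-fold and 16.3-fold). Of 9 measured genes of the arm that induces interferon, 4 rose and 1 fell in each genotype: Ifnb1, Irf7, Ticam1 (TRIF) and Tbk1 rose, and Mavs, the adaptor of the RNA sensors, fell. Ikbke (IKKε) had adjusted p-values of 0.0668 and 0.0716, and Tlr4, Irf3 and Ifna4 did not pass. In the fit that leaves out unstimulated control replicate 2, Ikbke passed (2.93, adjusted p = 0.00123) and Mavs did not (-1.59, adjusted p = 0.0611) in control macrophages. Of 9 measured genes of the arm that responds to interferon, 6 rose in ΔTrspM and 5 in control macrophages, and 0 fell. Irf1 (3.48 and 3.05), Socs1 (5.16 and 5.17), Socs3 (4.87 and 5.66) and Tyk2 (1.69 and 1.44) were the 4 with the smallest p in ΔTrspM macrophages.

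A closer view of unstimulated control replicate 2 shows how far it lay from its group. Its members exceeded the mean of replicates 1 and 3 by a median of 2.80 on the log2 scale (6.96-fold), and 22 of 33 were at least 4-fold above both other arrays, as were 0.544% of all genes. Ifit3 had the largest excess of the set, 30.1-fold, followed by Mx2 (26.6-fold) and Mx1 (22.2-fold), and Bst2 the smallest (1.39-fold). Ranked by this excess over all genes, 10 of the first 25 genes and 21 of the first 100 were members.

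Measured on the log2 scale against the way from the other unstimulated control arrays to the LPS-treated control arrays, the members on this array had covered a median of 69.4%. For genes that rose at least 2-fold with LPS in ΔTrspM macrophages, members left out, the median was 21.0%. It was 59.2% for 9 GTPases of the GBP and IRG families, which guard against intracellular pathogens, and 29.8% for 10 inflammatory targets of NF-κB. Rtp4 had covered 100.9%, Oas2 91.2% and Ifit3 89.7%. On the linear scale the array lay less far along: the summed signal of the members was 121730.5 there. It was 22474.4 and 21467.5 on the other unstimulated control arrays and 260054.8 to 265600.6 on the LPS-treated control arrays. In the arm that induces interferon, Ifnb1 stood at 5.66 on this array, against 5.84 and 5.22 on the other unstimulated control arrays, and was thus not raised, while Irf7 (11.28, against 7.92 and 8.37) and Ikbke (12.04, against 9.11 and 9.30) were.

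Markers of other cells were compared on the same array. The median excess was 0.29 for 6 markers of conventional dendritic cells, 3 of which were highest there, -0.11 for 8 of plasmacytoid dendritic cells, -0.16 for 6 of lymphoid cells, -0.53 for 7 of neutrophils and -1.52 for 8 of stromal cells. The plasmacytoid markers summed to a signal of 1568.5 there, against 2199.8 and 1446.8 on the other unstimulated control arrays, and the stromal markers to 464.8, against 2542.5 and 7123.9. The stromal sum was also lowest on replicate 2 of the unstimulated ΔTrspM arrays, at 879.8 against 4762.1 and 7615.3. On that array 24 of 33 members were highest, with a median excess of 0.40, whereas 28.5% of all genes were highest there. So were 39.3% of the other genes that rose at least 2-fold with LPS in ΔTrspM macrophages, 7 of 9 GBP and IRG GTPases and 8 of 10 inflammatory NF-κB targets. The part of the stromal markers, or of the shared replicate number, in the members' levels was not tested.

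**Figure D4:**
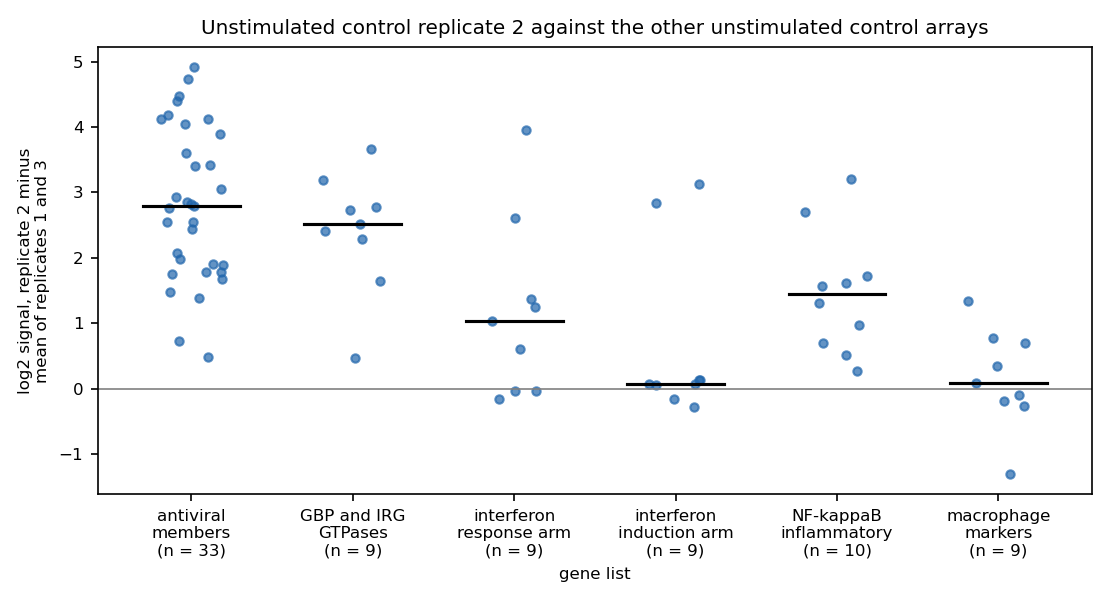
Log2 signal on unstimulated control replicate 2 minus the mean of unstimulated control replicates 1 and 3 (vertical axis) for each gene of 6 lists, with lines at the medians. The antiviral members (median 2.80) and the GBP and IRG GTPases (2.52) lie above the arm that induces interferon (0.08) and the macrophage markers (0.09).

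The spread among replicates was widest in the group that holds this array. The median SD of the members was 1.64 in the unstimulated control group, against 0.31 over all genes, and 0.36 in the unstimulated ΔTrspM group, against 0.27 over all genes. After LPS it was 0.17 in ΔTrspM and 0.15 in control macrophages, at signals near the top of the scale for many members. The main fit takes a variance pooled over the 4 groups. Its errors and p-values in every comparison, also those within ΔTrspM and after LPS, therefore carry the spread of the unstimulated control group.

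Between the genotypes, no difference was established in unstimulated macrophages. Of the 33 members, 0 passed in either direction, as did 0% of all genes, and 2 had an unadjusted p under 0.05 by limma, against 435 of all 18193 genes. The members were lower in ΔTrspM for 32 of 33, with a median of -1.03, against 0.04 over all genes. By replicate number the median difference was -0.09, -2.65 and -0.32, so that the pair with unstimulated control replicate 2 carried most of it. Without that array the median was -0.05, with 22 of 33 negative and 0 passing, and the 95% intervals of 21 members lay within 2-fold either way. With the replicate block 0 passed, and 8 members had an unadjusted p under 0.05 as lower in ΔTrspM, as did 1.89% of all genes.

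When unstimulated, 3 members (Sp110, Ifi47 and Sp100) had all ΔTrspM arrays below all control arrays, where 3.17% of all genes did so and 4.16% lay wholly above. Sp110, a nuclear body protein that also acts in resistance to intracellular bacteria, had 6.53, 5.02 and 4.98 in unstimulated ΔTrspM macrophages, against 6.71, 8.18 and 6.69 in unstimulated control macrophages. Its difference was -1.68 ± 0.46 (SE, unadjusted p = 0.00373, adjusted p = 0.9999), and -1.19 without unstimulated control replicate 2 (unadjusted p = 0.0163). Ifi47 had 8.59, 8.93 and 8.98 in unstimulated ΔTrspM macrophages, against 9.16, 12.33 and 9.64 in unstimulated control macrophages, a difference of -1.54 ± 0.62 that came to -0.56 without that array. Parp9 (-0.90, unadjusted p = 0.0552) and Samd9l (-0.99, unadjusted p = 0.0561) had the next smallest p and overlapped, and came to -0.27 and -0.40 without that array.

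After LPS the genotypes lay close together on the quantile-normalized scale. Many members were then near the top of that scale, and ΔTrspM LPS replicate 2 was dim before scaling. How far these set the closeness was not tested. Again 0 of the 33 members passed, while 0% of all genes passed as higher and 0.011% as lower. By limma 1 member had an unadjusted p under 0.05, as lower in ΔTrspM, against 1051 of all 18193 genes (2.19% lower and 3.58% higher). By the methods' t-test 5 members had an unadjusted p under 0.05, all lower in ΔTrspM (Oas1f, Eif2ak2, Mx2, Ifi47 and Parp14), as did 1.69% of all genes, and 0 passed after adjustment. With the 6 LPS arrays alone, limma gave 1 such member, and 1.57% of all genes had an unadjusted p under 0.05 as lower. The median difference was -0.12, against 0.04 over all genes, with 27 of 33 members negative. By replicate number it was -0.21, -0.12 and -0.10, against 0.10, 0.03 and 0.00 over all genes, with 23, 24 and 27 members negative. With no scaling of the arrays all 33 were negative (median -0.81), and the median of all genes then stood at -0.60. Below the median of all genes lay 28 of the 33 as analysed, and 25 with median centring or no scaling. Relative to the median of all genes, the members' median lay at -0.16 as analysed and at -0.21 with median centring or no scaling. With the 6 LPS arrays fitted alone, 29 members had a 95% interval within 2-fold either way, and the exceptions beside Oas1f were Isg20, Herc6 and Sp100.

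Wholly separated arrays after LPS were seen for 7 members below control, where 3.77% of all genes were below, and for 1 above, Ifit1, where 5.37% were above. Oas1f showed by far the largest difference, 3.50-fold lower in ΔTrspM (-1.81 ± 0.30, SE, unadjusted p = 7.8e-05), and did not pass over all genes (adjusted p = 0.141), although it did without unstimulated control replicate 3. The other members that lay wholly below differed little: Eif2ak2 by -0.45, Mx1 by -0.37, Mx2 by -0.33, Ifi47 by -0.28, Ddx58 by -0.27 and Parp14 by -0.20. Of the members with the next smallest p after Oas1f, Eif2ak2 had 11.28, 11.45 and 11.62 in LPS-treated ΔTrspM macrophages, against 12.11, 11.86 and 11.75 in LPS-treated control macrophages (unadjusted p = 0.343). Herc6 (-0.43) and Sp110 (0.30) overlapped between the genotypes. The sign for Sp110 turned under 3 other ways of reading it.

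**Figure D5:**
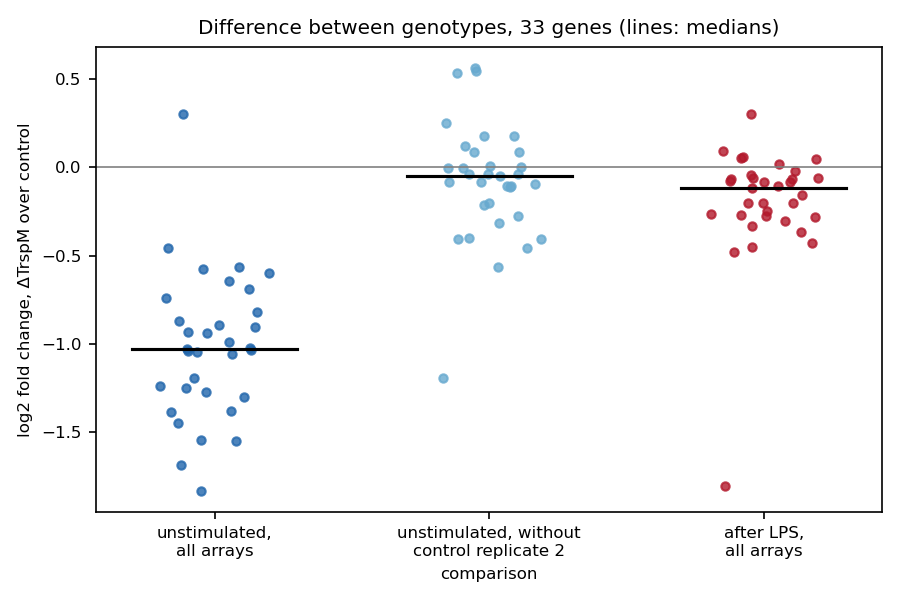
Log2 fold change of ΔTrspM over control for each of the 33 members (vertical axis), unstimulated with all arrays, unstimulated without control replicate 2, and after LPS, with lines at the medians (-1.03, -0.05 and -0.12). The single low point after LPS is Oas1f, and the low point in the middle column is Sp110.

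The change with LPS was also compared between the genotypes. The interaction had a median of 0.83 over the 33 members, positive for 32 of them, and 0 passed, as did 0% of all genes in either direction. By limma 2 members had an unadjusted p under 0.05, against 555 of all 18193 genes. Without unstimulated control replicate 2 the median was -0.09, with 22 negative and 0 passing, so that the sign of the median turned when that array was left out. With no scaling the median was 0.12, against -0.59 over all genes, and 2 of the 33 lay below that median of all genes. Oas1f had the smallest p, with an interaction of -2.11 ± 0.42 (SE, unadjusted p = 0.000383, adjusted p = 0.477), and -2.35 without that array. Sp110 followed at 1.99 ± 0.65 (unadjusted p = 0.011), and 1.49 without the array. Bst2 (0.62) and Ifit1 (1.93) came next, with unadjusted p-values of 0.142 and 0.146. Probe sets did not all give the same interaction. Those of Sp110 that were not used stood at 0.97 and -0.20, and a probe set not used was also negative for Xaf1 (-0.81) and Dhx58 (-0.39).

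Related interferon targets gave similar readings. Of 9 measured GTPases of the GBP and IRG families, 8 rose with LPS in each genotype, by a median of 5.32 in ΔTrspM and 4.60 in control macrophages (5.15 without unstimulated control replicate 2). After LPS all 9 were lower in ΔTrspM, and 0 passed. Gbp8 had 5.65, 5.88 and 5.56 in LPS-treated ΔTrspM macrophages, against 7.25, 6.72 and 6.45 in LPS-treated control macrophages, which is a low signal on this array type (-1.11, adjusted p = 0.575). The 10 inflammatory NF-κB targets split evenly after LPS, 5 higher and 5 lower in ΔTrspM, and Tnf differed by 0.11 and Il6 by -0.08.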

How the data were processed

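RNA was hybridized to Affymetrix mouse genome GeneChip arrays, and the authors normalized the data in Expression Console. The deposited values are linear signal intensities for 45101 probe sets, and how probes were summarized is not stated in the sources used here. The deposited intensities of 45037 non-control probe sets were quantile-normalized, 16 was added and log2 was taken. Of these, 34945 carried 1 gene symbol, 932 several and 9160 none. The brightest single-symbol probe set per gene gave 18193 genes, and 0 value columns were unused. The 4 groups were fitted together with limma 3.58.1 in R 4.3.3 (8 residual degrees of freedom), and p-values were adjusted over all genes (threshold 0.05). The fit was tested only on simulated data with independent noise, in which some genes were changed in the LPS-treated ΔTrspM group. Those data held no array that stood apart and no pairing of replicates, so the test does not cover these features. Per-array values are given for the 10 members most changed by LPS and for those not passing in a genotype. In the genotype comparisons the members with the 4 smallest p are named. Members and lists were chosen with earlier results of these data known.

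Same-numbered arrays of the compared groups deviated together (12 pairs, r = 0.126 to 0.442), so replicate numbers were taken to pair cultures. The 6 same-numbered pairs from groups not compared had r = 0.0668 to 0.271. The main fit holds no replicate block, so its errors and p-values do not use that pairing, which enters only where the block is named. The labels call the replicates biological and do not say whether mice were pooled. Only 3 arrays per group limit the precision, and an exact test of 3 against 3 cannot go below p = 0.1. Alternatives were probe set averaging, median centring, no scaling, added constants of 1 and 64, a filter on dim genes, a variance trend, fits of the compared arrays alone, a replicate block, the methods' t-test at p under 0.01 and leaving out each array. Promoter windows came from RefSeq (GRCm38.p6).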

Additional observations from a re-analysis of the deposited data

Results flagged for a closer look

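The change of Oas1f with LPS ran in opposite directions in the genotypes, with every LPS-treated ΔTrspM array below every unstimulated ΔTrspM array and every LPS-treated control array above every unstimulated control array. The difference between the genotypes in that change was -2.11 on the log2 scale, and by limma it did not pass over all genes (adjusted p = 0.477). The signals are dim on all 12 arrays, and the part of low signal in the difference was not tested.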

How the results depend on the processing

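The count of members that rose with LPS in ΔTrspM macrophages stayed between 27 and 32 in every alternative run, while 262 (no scaling) to 1689 (replicate block) of all genes rose. In control macrophages it was 29 as analysed, 33 with the replicate block, 18 with the control arrays fitted alone and 0 by the methods' t-test at p under 0.01 or after adjustment (24 at an unadjusted p under 0.05), and 19 to 33 with each array left out, where 33 was reached without unstimulated control replicate 2 and 19 without unstimulated control replicate 3. Of all genes, 995 rose in control macrophages with those arrays fitted alone, 911 by the t-test at p under 0.01 and 427 by the t-test after adjustment. The replicate block changed no other count of members called. The 1 member that fell in ΔTrspM macrophages, Oas1f, gave a count of 0 with median centring, no scaling, a constant of 64, the dim filter (which removes it) or a variance trend, and 0 to 1 with each array left out. The median change with LPS in ΔTrspM macrophages was 3.53 with median centring and 2.83 with no scaling, where the median of all genes stood at -0.73. After LPS, 1 member was called lower in ΔTrspM by the methods' t-test at p under 0.01, as were 57 of all genes, and 0 to 1 members with each array left out. The median difference was -0.298 with median centring and -0.810 with no scaling. Sp110 after LPS turned to -0.056 with probe sets averaged, -0.12 with median centring and -0.63 with no scaling, and the Bst2 interaction to -0.20 with no scaling, a setting that moved the median interaction of all genes to -0.587. The causes were not tested, apart from the filter. Dim signals limit Oas1f and Sp110.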
